A study of Homo sapiens with 12 samples.

Results

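The nuclear-encoded subunits of the respiratory chain were examined in NCI-H520, a human lung squamous cell carcinoma line. They were chosen by symbol as the protein-coding genes that begin with NDUFA, NDUFB, NDUFC, NDUFS, NDUFV, UQCR, COX4 to COX8 or ATP5, with *SDHA* to *SDHD* and *CYC1* added and the NDUFAF assembly factors removed. The rule gave 91 of the 58302 genes in the count table, and 86 of these were among the 17849 genes tested. Complex I held 37 members, complex II 4, complex III 10, complex IV 19 and complex V 19, and the readthrough genes *ATP5MF-PTCD1* and *NDUFC2-KCTD14* were placed in none. These 2 readthrough genes and the tissue-restricted *COX4I2*, *COX6A2* and *COX8C* had too few counts to be tested. *NDUFA4* and its paralog *NDUFA4L2* were counted with complex IV, where the NDUFA4 protein is found, despite their names.

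The 12 cultures formed 4 groups of 3, and their RNA was sequenced. In the first, cells carrying the *L1-FGGY* chimeric transcript from a lentivirus (OV-L1-FGGY) received DMSO at 0.2%, the solvent. In the second, OV-L1-FGGY cells received 10 μM ML355, an inhibitor of 12-LOX. The third is labelled as OV-L1-FGGY cells given 450 μM NVR, a reverse transcriptase inhibitor. The fourth is labelled only as a control with 0.2% DMSO and was read as the empty-vector cells (OV-CTRL). Medium was exchanged 5 h after seeding in all groups, and the duration of treatment is not given in the sources used here. Whether each construct was carried by 1 clone or by a pool of cells, and whether replicates came from separate experiments, is not given in the sources used here, so that p-values measure the spread between these cultures. In bulk RNA, fewer cells of a kind and less RNA per cell cannot be told apart.

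Total counts ran from 16242082 to 27004768 per library, and levels are given as CPM (each count relative to the library total) with TMM scaling. *FGGY* was at 287 ± 22 CPM (SD, 3 cultures) in DMSO-treated OV-L1-FGGY and 318 ± 47.8 CPM with ML355, but at 4.25 ± 0.523 CPM in the NVR group and 3.41 ± 0.418 CPM in OV-CTRL. This went against the OV-L1-FGGY part of the third label, so these cultures are called NVR-labelled libraries. Of 7 squamous markers, *KRT6A* and *DSG3* had no count in any library, and *KRT5* and *PKP1* were below 0.1 CPM on average in every group. *KRT14* was at 0.386 ± 0.149 CPM in OV-L1-FGGY with DMSO and 2.49 ± 0.921 CPM with ML355 and had no count in the other 6 libraries. *TP63* was at 0.709 ± 0.115, 0.218 ± 0.171, 2.53 ± 1.21 and 3.03 ± 1.03 CPM in OV-L1-FGGY with DMSO, with ML355, in the NVR group and in OV-CTRL. *SOX2* had no count in the 6 libraries with high *FGGY*, and was at 10.9 ± 3.36 CPM in the NVR-labelled libraries and 16 ± 1 CPM in OV-CTRL. Of the 4 epithelial markers, *CDH1*, *KRT8* and *KRT18* were called lower in OV-L1-FGGY than in OV-CTRL in DMSO and *EPCAM* was called higher. *EPCAM* was at 8.87 ± 1.31, 9.17 ± 0.845, 0.859 ± 0.15 and 1.57 ± 0.264 CPM in the same order of groups. *CDH1* was at 0.394 ± 0.127, 0.156 ± 0.137, 10.6 ± 2.33 and 30.7 ± 3.49 CPM in the same order of groups. The libraries thus fell into 2 sets, so that *L1-FGGY* and the other differences between the sets cannot be told apart. Comparisons were therefore made within a set (ML355 against DMSO in OV-L1-FGGY, and the NVR-labelled libraries against OV-CTRL) and between sets (OV-L1-FGGY against OV-CTRL, both in DMSO, and the NVR-labelled libraries against OV-L1-FGGY with DMSO).

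The respiratory chain moves electrons from NADH (complex I) and succinate (complex II) through ubiquinone to complex III, then by cytochrome c to complex IV, which reduces oxygen. Complexes I, III and IV pump protons, and complex V, the ATP synthase, uses the proton gradient to make ATP. Complexes I, III, IV and V combine a few subunits encoded by mitochondrial DNA with many encoded in the nucleus, while complex II is entirely nuclear-encoded and also works in the citric acid cycle. Core subunits carry the redox centres or catalytic sites, and supernumerary subunits surround and stabilise them.

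The counts differed between complexes. Between OV-L1-FGGY and OV-CTRL in DMSO, 3 of the 4 complex II members were higher in OV-L1-FGGY and none was lower. Of these, *SDHA* and *SDHD* have over 20% of the canonical transcript in exons of another gene. Complexes I and III had 32.4% and 30% of members called lower there, below the 36.2% of all genes tested, and 10.8% and none called higher. In the NVR-labelled libraries against OV-CTRL, 10 of the 11 ubiquitous complex IV subunits were higher and none was lower. With the paralogs and the supercomplex factor, this was 11 of 16 members, or 68.8% where all genes had 14.5%. Once a trend on transcript length described below was removed, it was 9 members, or 56.2% where all genes had 17.5%. After ML355, 5 of the 10 complex III members were called higher (50%, all genes 21.3%). With the same trend removed, it was 2 members (20%, all genes 23.4%). A gene was called when its Benjamini-Hochberg adjusted p over all genes tested by edgeR's quasi-likelihood test was under 0.01.

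After ML355, 18 members were called higher and 6 lower, where 21.3% of all genes tested were called higher and 23.5% lower. The median log2 fold change of the 86 members was 0.23. In the NVR-labelled libraries against OV-CTRL, 22 were higher and 1 lower, with 14.5% and 15.3% of all genes tested, and the median was 0.51. In OV-L1-FGGY against OV-CTRL, 20 were higher and 22 lower (all genes 32.5% and 36.2%), with a median of -0.12. In the NVR-labelled libraries against OV-L1-FGGY with DMSO, 46 were higher and 13 lower (all genes 38.2% and 35.4%), with a median of 0.61. The last 2 comparisons share DMSO libraries with the others and with each other, so values are given side by side. The medians of all genes tested were 0.00, 0.00, -0.11 and 0.08 in the same order.

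**Figure D1:**
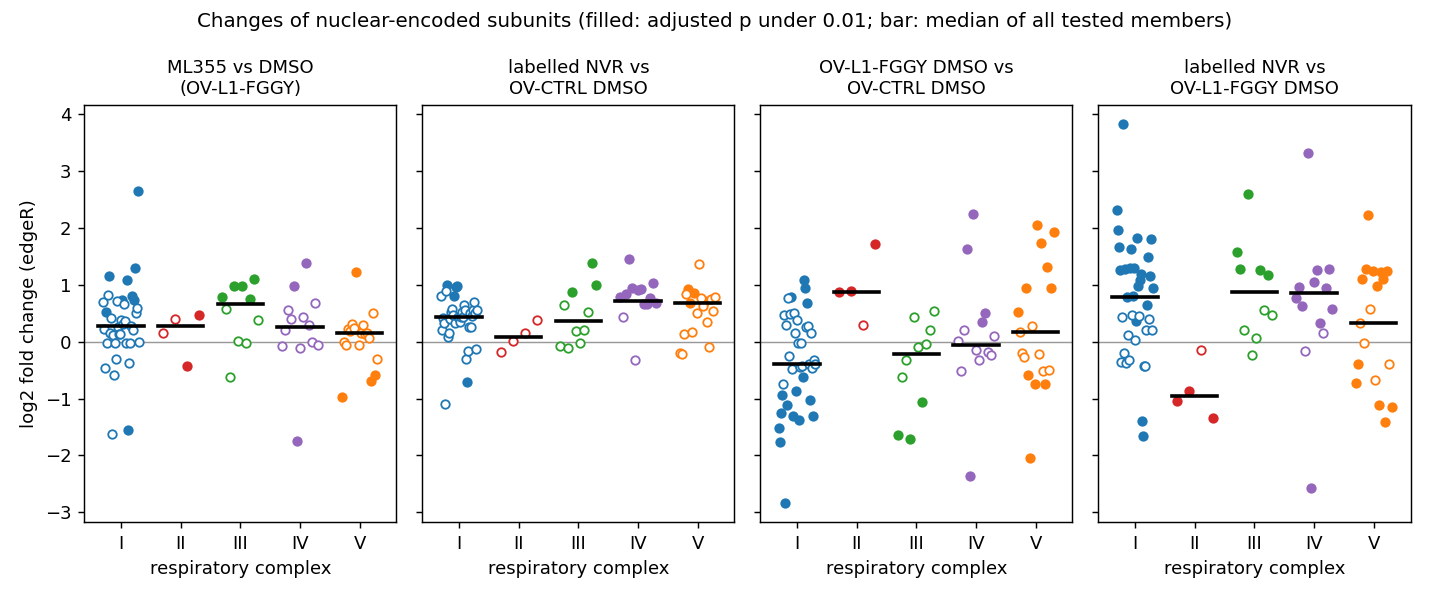
Log2 fold change (edgeR, vertical axis) of each tested member by complex (horizontal axis) in the 4 comparisons; filled points had an adjusted p under 0.01 and the black bar is the median of all tested members of the complex. The plot leaves out COX7A1, COX7B2, ATP5MGL and NDUFA4L2, whose counts were near 0 in some groups. Complex II sits above 0 in OV-L1-FGGY against OV-CTRL, and nearly all complex IV points in the NVR-labelled libraries against OV-CTRL are filled and above 0.

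Transcript length moved with these shifts. Most subunits are small proteins with short mRNAs. The length classes hold the tested members and other protein-coding genes with a mean log2 CPM above 0 over the 12 libraries. Of these members, 38 have a canonical transcript under 750 bases in GENCODE 44. Over these 38, the median log2 fold change was 0.37 after ML355, 0.68 in the NVR-labelled libraries against OV-CTRL, -0.36 in OV-L1-FGGY against OV-CTRL, and 1.06 in the NVR-labelled libraries against OV-L1-FGGY with DMSO. The 254 other protein-coding genes of that length had medians of 0.47, 0.66, -0.43 and 0.98. In the same order, 21.1%, 36.8%, 10.5% and 68.4% of the 38 members were called higher. Of the 254 other genes, these shares were 37%, 40.6%, 24% and 59.1%. The medians of the subunits with short mRNAs thus lay within 0.1 of those of other genes with short mRNAs in all 4 comparisons. For the 6805 other protein-coding genes of 3000 bases or more, the medians were -0.12, -0.18, 0.30 and -0.53. The medians of the 10 members of that length were above 0 in all 4 comparisons, at 0.08, 0.28, 0.14 and 0.24. Single members went both ways, with 10%, 10%, 30% and 20% of the 10 called lower. From 1500 to under 3000 bases, the 14 members had medians of 0.00, 0.08, 0.39 and -0.09. The 3618 other genes of that class had 0.08, 0.05, -0.16 and 0.17. The longer members thus did not follow the other genes throughout.

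The same trend separated replicates of a group. The members under 750 bases lay a median of 0.41 above their group mean (log2 CPM) in replicate 3 of the NVR-labelled libraries and -0.42 from it in replicate 2, and the other short genes lay at 0.37 and -0.38. In OV-CTRL the deviations of the short members were 0.32, -0.10 and -0.21 in replicates 1 to 3. In OV-L1-FGGY with DMSO or ML355 they stayed between -0.19 and 0.10. What made short mRNAs more or less abundant in a library was not tested.

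**Figure D2:**
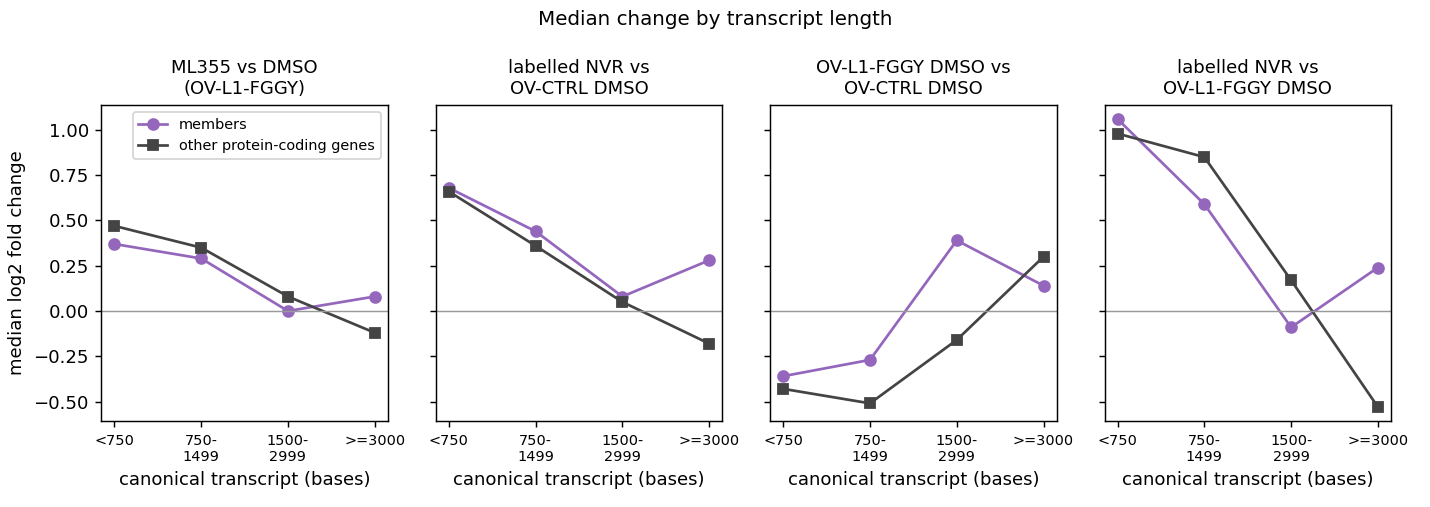
Median log2 fold change (vertical axis) of the members and of other protein-coding genes in 4 classes of canonical transcript length in bases (horizontal axis), for the 4 comparisons. Only genes with a mean log2 CPM above 0 are included. The members under 750 bases (38) and from 750 to under 1500 bases (20) follow the other genes. In the NVR-labelled libraries against OV-CTRL, the shortest class had 0.68 against 0.66. The longer classes hold only 14 and 10 members, and their medians differ in sign from those of the other genes in some comparisons.

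All comparisons were therefore also run with the trend of each library's log2 CPM on transcript length removed, an alternative added after these values were seen. The members called higher and lower were then 12 and 14 after ML355 (all genes 23.4% and 25.4%), and 16 and 6 in the NVR-labelled libraries against OV-CTRL (all genes 17.5% and 15.1%). They were 32 and 20 in OV-L1-FGGY against OV-CTRL (all genes 33.9% and 36.4%), and 26 and 26 in the NVR-labelled libraries against OV-L1-FGGY with DMSO (all genes 38% and 35.6%). The common biological coefficient of variation fell from 0.143 to 0.121. The canonical model of 10 tested members is 3000 bases or longer (*UQCRB*, *ATP5F1E* and *NDUFS1* among them, with a long annotated last exon), and whether these cells use that end was not examined. Values below are from the fit without this correction unless the correction is named.

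**Figure D3:**
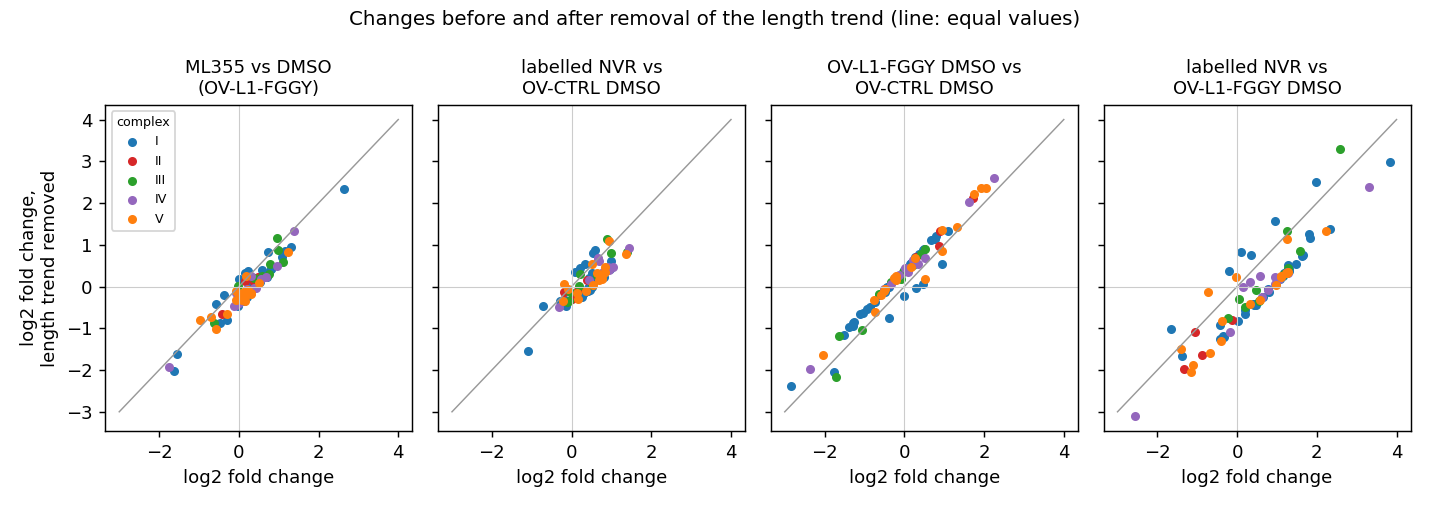
Log2 fold change of each tested member in the fit as run (horizontal axis) and with the length trend removed (vertical axis), coloured by complex, in the 4 comparisons; the line marks equal values and COX7A1, COX7B2, ATP5MGL and NDUFA4L2 are left out. Most members move down in the NVR-labelled libraries against OV-CTRL, where the median went from 0.51 to 0.16, and up in OV-L1-FGGY against OV-CTRL, where it went from -0.12 to 0.18.

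Exon overlap between genes also moved with the level. For 8 tested members, over 50% of the canonical transcript lies in exons of another annotated gene on either strand. Their median level was 4.75 CPM per kilobase, and 7 of them (*ATP5PO*, *NDUFA7*, *NDUFA11*, *NDUFA13*, *NDUFB8*, *NDUFS7* and *NDUFV2*) were under 20 CPM, with *SDHA* the exception. The median was 134 CPM per kilobase for the 46 members that share no base, leaving out the tissue-restricted paralogs, *ATP5MGL* and *UQCRHL*, and none of those 46 was under 20 CPM. NDUFV2, NDUFS7 and NDUFA13 are required parts of complex I, and their counts are uncertain as levels of the mRNA. The part of the overlap in these levels was not tested, and whether reads in shared exons were dropped in counting is not given in the sources used here.

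Complex I was described by module, from the matrix arm that takes electrons from NADH (N module) and passes them to ubiquinone (Q module) to the proximal and distal membrane arms. Of its 37 members, in OV-L1-FGGY against OV-CTRL, 4 were higher (10.8%) and 12 lower (32.4%), with a median log2 fold change of -0.39. The share lower was near the 36.2% of all genes tested, and the share higher was below the 32.5% of all genes. The proximal membrane arm held 5 of the lower calls among its 9 members, and the distal arm and N module 3 each among 11 and 8. With the length trend removed, 10 were higher and 12 lower, 11 of them lower in both fits.

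*NDUFA3*, a supernumerary subunit of the proximal arm (chromosome 19, 54102728 to 54109257, GRCh38), had the largest fall in the complex. It was at 8.15, 11.4 and 11.8 CPM in OV-L1-FGGY with DMSO, 20.4, 16.3 and 33.3 CPM with ML355, 140, 96.0 and 211 CPM in the NVR-labelled libraries, and 95.7, 67.1 and 62.1 CPM in OV-CTRL. No library of the set with high *FGGY* reached the lowest of the other set. The log2 fold change of OV-L1-FGGY against OV-CTRL was -2.84 (SE 0.30, edgeR adjusted p = 2.44e-07) and remained at -2.38 with the length trend removed. *NDUFA3* was also higher after ML355, by 1.16 (SE 0.29, edgeR adjusted p = 0.00313), and in the NVR-labelled libraries against OV-CTRL, by 0.99 (SE 0.27, edgeR adjusted p = 0.00742). Without the length trend the first was still called at 0.84, and the second, at 0.61, was not.

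*NDUFA10*, another proximal arm subunit, was also lower in OV-L1-FGGY than in OV-CTRL. The correction took it as 4855 bases long, the length of its canonical transcript, and whether these cells use that length was not examined. It was at 33.5 ± 2.11 CPM in OV-L1-FGGY with DMSO, 39.3 ± 0.929 CPM with ML355, 131 ± 14.2 CPM in the NVR-labelled libraries and 113 ± 12.7 CPM in OV-CTRL (SD, n = 3). The log2 fold change of OV-L1-FGGY against OV-CTRL was -1.76 (SE 0.12, edgeR adjusted p = 9.5e-10), and -2.05 with the length trend removed.

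The core and supernumerary subunits were counted apart, and the difference between them was not tested. Of 7 core members, *NDUFS1* and *NDUFS3* were higher in OV-L1-FGGY than in OV-CTRL and *NDUFV1* was lower. Of 30 supernumerary members, 2 were higher (6.67%) and 11 lower (36.7%), where all genes tested had 32.5% and 36.2%. The share lower was thus near that of all genes. With the length trend removed, 3 core members were higher and 1 lower (median 0.54), and 7 supernumerary members were higher and 11 lower (median -0.10). The supernumerary shares were then 23.3% and 36.7%, where all genes had 33.9% and 36.4%. *NDUFS1*, which carries iron-sulfur clusters of the N module, was at 138, 139 and 136 CPM in OV-L1-FGGY with DMSO, 105, 107 and 108 CPM with ML355, 43.0, 53.8 and 33.8 CPM in the NVR-labelled libraries, and 64.7, 73.3 and 75.8 CPM in OV-CTRL. The 4 groups did not overlap. It was higher in OV-L1-FGGY than in OV-CTRL by 0.95 (SE 0.13, edgeR adjusted p = 7.65e-06) and was the only member called lower in the NVR-labelled libraries against OV-CTRL, at -0.71 (SE 0.14, edgeR adjusted p = 0.000604). *NDUFV1*, which binds NADH, went the other way in the first comparison, at -1.30 (SE 0.19, edgeR adjusted p = 1.12e-05), with 109 ± 13.3 CPM against 268 ± 47.5 CPM.

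After ML355, 8 complex I members were higher, or 21.6% where all genes had 21.3%, and 1 was lower. The N module held 4 of the 8. With the length trend removed, 7 members were higher and 5 lower, and the N module held 2 of the 7. The largest rise was that of *NDUFV2*, the partner of *NDUFV1* in NADH oxidation, with 27, 26 and 31 counts in DMSO against 184, 195 and 173 with ML355. In CPM this was 1.49 ± 0.109 and then 9.40 ± 0.557 (SD, n = 3), which gave a log2 change of 2.65 (SE 0.30, edgeR adjusted p = 2.1e-06). With 90% of its canonical transcript in exons of another gene, which gene these counts came from is uncertain. *NDUFC2*, of the proximal arm, fell. It went from 11.5, 9.73 and 9.42 CPM to 4.88, 3.14 and 2.42 CPM, by -1.55 (SE 0.25, edgeR adjusted p = 6.34e-05), while OV-CTRL was at 5.89, 4.22 and 4.26 CPM. In the NVR-labelled libraries against OV-CTRL, 4 complex I members were higher, *NDUFA3*, *NDUFB1*, *NDUFB2* and *NDUFB11*, of which 3 lie in the distal arm. Only *NDUFB11* was still called with the length trend removed.

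**Figure D4:**
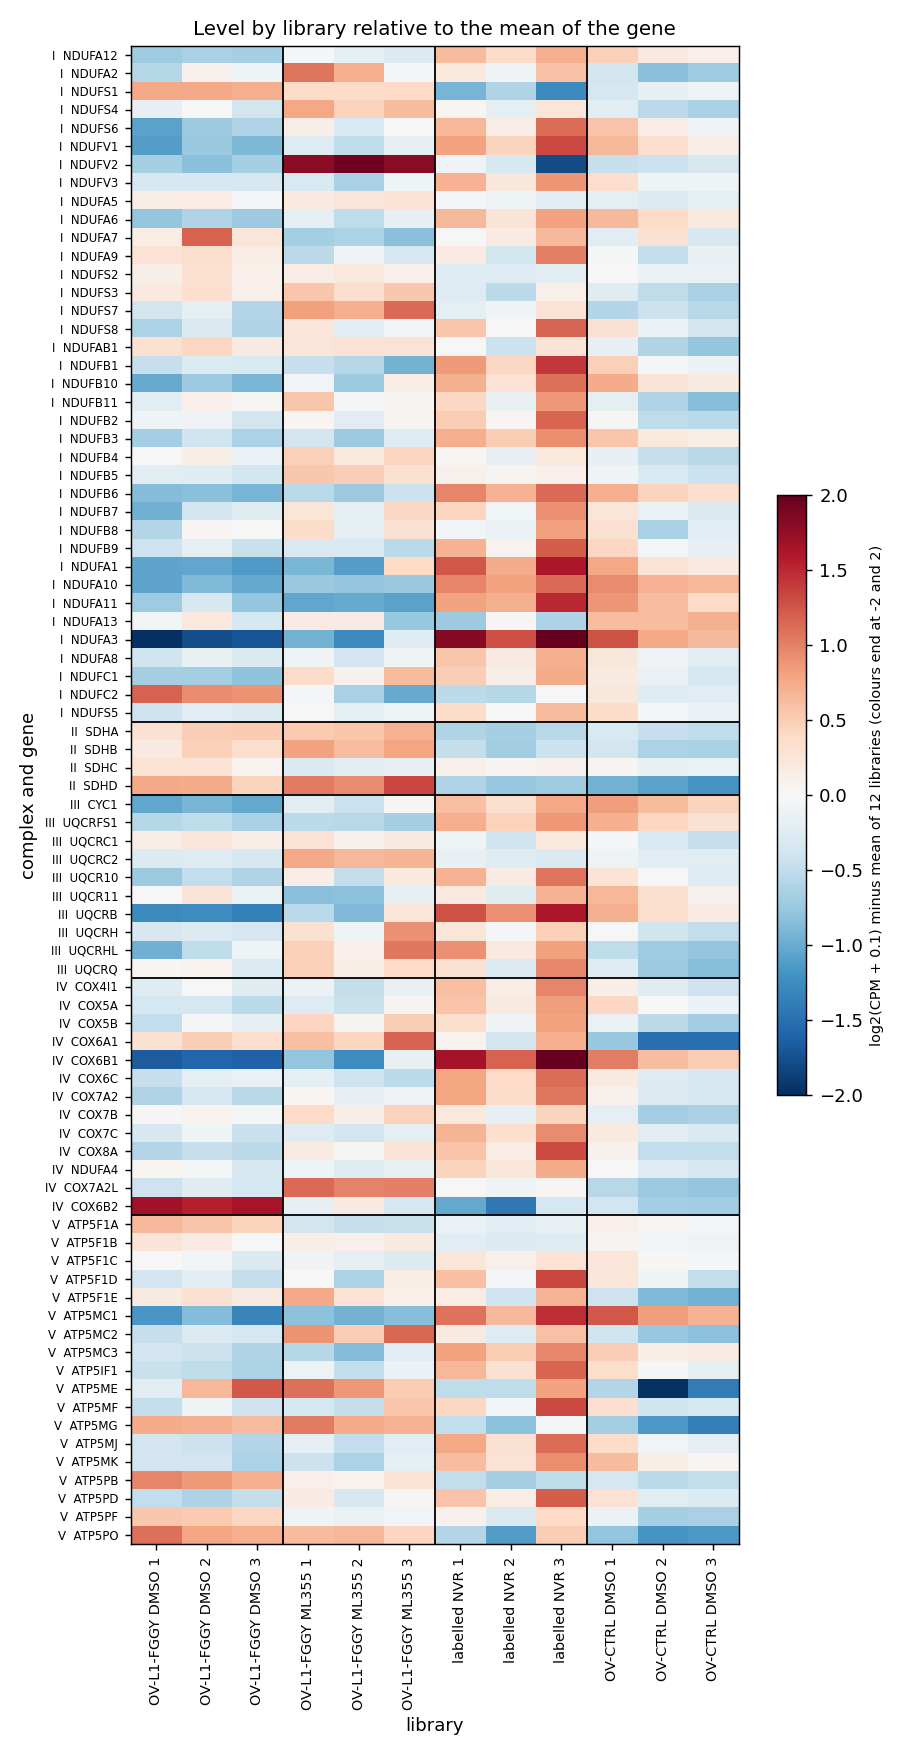
Level of 82 tested members (rows, by complex) in the 12 libraries (columns), as log2(CPM + 0.1) minus the mean of the 12 libraries, with red above and blue below the mean; COX7A1, COX7B2, ATP5MGL and NDUFA4L2 are left out. NDUFA3, COX6B1 and UQCRB are blue in all OV-L1-FGGY libraries with DMSO and red in the NVR-labelled libraries and OV-CTRL, SDHD is the reverse.

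Complex II, succinate dehydrogenase, had 3 of 4 members called higher in OV-L1-FGGY than in OV-CTRL, or 75% where all genes had 32.5%. Its catalytic part is the flavoprotein *SDHA* and the iron-sulfur protein *SDHB*, and *SDHC* and *SDHD* anchor it in the inner membrane. The 4 genes summed to 649.3, 720.6 and 686.2 CPM in OV-L1-FGGY with DMSO, 735.3, 723.3 and 813.1 CPM with ML355, 390.8, 368.7 and 395.8 CPM in the NVR-labelled libraries, and 427.9, 379.1 and 369.3 CPM in OV-CTRL. The sums of the set with high *FGGY* were all above those of the other set. In OV-L1-FGGY against OV-CTRL, *SDHA*, *SDHB* and *SDHD* were higher and *SDHC* was not called, with a median of 0.88 over the 4. The count was 3 or 4 of 4 in each refit of the counts, including each library left out, and 4 of 4 with the length trend removed (median 1.16). The median ran from 0.59 to 1.16 over all alternatives. Only *SDHB* and *SDHC* have under 20% of the canonical transcript in another gene. They were at 0.89 and 0.29, and of these *SDHB* alone was called.

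*SDHD* differed most. It was at 73.0, 72.5 and 58.7 CPM in OV-L1-FGGY with DMSO, 89.3, 83.2 and 110 CPM with ML355, 28.5, 25.6 and 26.5 CPM in the NVR-labelled libraries, and 22.4, 20.5 and 19.1 CPM in OV-CTRL. The log2 fold change of OV-L1-FGGY against OV-CTRL was 1.72 (SE 0.13, edgeR adjusted p = 5.21e-09), and that of the NVR-labelled libraries against OV-L1-FGGY was -1.34 (SE 0.13, edgeR adjusted p = 7.28e-08). *SDHB* was at 111 ± 11.4 CPM against 60.1 ± 6.91 CPM in OV-CTRL (0.89, SE 0.12, edgeR adjusted p = 4.84e-06). *SDHA* was at 382 ± 31.2 CPM against 210 ± 15.2 CPM (0.87, SE 0.11, edgeR adjusted p = 1.63e-06). Of the canonical transcripts, 69.4% of *SDHA* and 23.8% of *SDHD* lie in exons of other genes, so the reads of both are uncertain.

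Within the sets complex II changed little. After ML355, *SDHD* was higher by 0.47 (SE 0.13, edgeR adjusted p = 0.00468) and *SDHC* lower, at -0.43 (SE 0.10, edgeR adjusted p = 0.00166), from 131, 129 and 112 CPM to 87.8, 92.2 and 95.5 CPM. Without the length trend *SDHC* was still called at -0.66 and *SDHD* was not, at 0.24. In the NVR-labelled libraries against OV-CTRL none of the 4 was called, with log2 fold changes from -0.18 to 0.38, and with the length trend removed *SDHB* was called lower, at -0.31.

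Complex III passes electrons from ubiquinol to cytochrome c through cytochrome c1 (*CYC1*) and the Rieske protein (*UQCRFS1*). Between OV-L1-FGGY and OV-CTRL, both of these redox subunits and the small ubiquinone-binding *UQCRB* were lower, and none of the 10 members was higher. All 3 were still called lower with the length trend removed. That fit took *UQCRB* as 8459 bases long, and whether these cells use that length was not examined. *CYC1* was at 175 ± 7.48 CPM in OV-L1-FGGY with DMSO, 303 ± 47.0 CPM with ML355, 520 ± 82.3 CPM in the NVR-labelled libraries and 545 ± 74.7 CPM in OV-CTRL, and the log2 fold change was -1.64 (SE 0.15, edgeR adjusted p = 4.2e-08). *UQCRB* was at 45.0, 46.0 and 42.6 CPM, 74.7, 59.0 and 129 CPM, 263, 204 and 336 CPM, and 177, 138 and 122 CPM in the same order of groups. Its lowest value outside OV-L1-FGGY with DMSO was thus above all 3 of that group, and the change against OV-CTRL was -1.71 (SE 0.24, edgeR adjusted p = 7.4e-06).

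After ML355, 5 complex III members were higher and none lower, with a median of 0.67. These were *CYC1*, *UQCRC2*, *UQCRB*, *UQCRH* and *UQCRHL*. *UQCRC2*, a core protein of the matrix side, went from 150, 151 and 145 CPM to 306, 286 and 291 CPM, and was at 149 to 168 CPM in the other 6 libraries. Its rise of 0.98 (SE 0.09, edgeR adjusted p = 3.13e-07) was 0.87 with the length trend removed. *CYC1* rose by 0.79 (SE 0.15, edgeR adjusted p = 0.000236) and was also still called, at 0.53. *UQCRB*, *UQCRH* and the single-exon copy *UQCRHL* were no longer called. The largest log2 fold change among the 6 small subunits was 1.10 as fitted and 1.16, not called, with the trend removed. *UQCRB* was again taken as 8459 bases long, so its lost call cannot be read as that of a short mRNA. The ML355 libraries of *UQCRB*, *UQCRH* and *UQCRHL* were uneven, with replicate 3 the highest of the 3 in each. Without that replicate the count was 2, without OV-L1-FGGY DMSO replicate 1 it was 2, and without OV-L1-FGGY DMSO replicate 2 or 3 it was 3. *UQCRHL* is near identical to *UQCRH*, so that its 1.89 ± 0.602 CPM in OV-L1-FGGY with DMSO and 4.10 ± 1.43 CPM with ML355 are uncertain.

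Against OV-CTRL, in the NVR-labelled libraries, *UQCRQ*, *UQCRB* and *UQCRHL* were higher, at 1.00, 0.88 and 1.38. The redox subunits and the core proteins were not called, with values from -0.07 to 0.20. Only *UQCRQ*, a small subunit, was still called with the length trend removed, at 0.81, and *CYC1* was then called lower, at -0.35. The length taken for *UQCRB* limits its value in this fit too.

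Complex IV, cytochrome c oxidase, has a catalytic core encoded by mitochondrial DNA, and its nuclear-encoded subunits surround it. For the NVR-labelled libraries against OV-CTRL, 10 of the 11 ubiquitous subunits were higher, with a median of 0.84. The exception, *COX5A*, was at 0.44 (SE 0.17, edgeR adjusted p = 0.0477). The supercomplex factor *COX7A2L* was also higher, and none of the 4 tested tissue-restricted paralogs was called. With the length trend removed, 8 of the 11 were called higher (median 0.41), namely *COX4I1*, *COX5B*, *COX6A1*, *COX6C*, *COX7A2*, *COX7B*, *COX8A* and *NDUFA4*. No other complex had more than 4 higher calls in that fit.

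The largest of these rises was in *COX6A1*. It was at 21.9, 16.1 and 34.6 CPM in the NVR-labelled libraries and 12.2, 7.12 and 7.21 CPM in OV-CTRL, a log2 fold change of 1.45 (SE 0.27, edgeR adjusted p = 0.000456). Of its canonical transcript, 32.6% lies in exons of another gene, so its reads are uncertain. *COX4I1*, the largest nuclear-encoded subunit, was at 612, 448 and 798 CPM against 440, 340 and 303 CPM, a log2 fold change of 0.78 (SE 0.19, edgeR adjusted p = 0.00326). *COX7C* was at 518, 412 and 626 CPM against 372, 281 and 267 CPM, at 0.76 (SE 0.16, edgeR adjusted p = 0.00126). Replicate 2 was the lowest of the NVR-labelled libraries in each of these 3. For *COX4I1* it was at 448 CPM, close to the 440 CPM of OV-CTRL replicate 1.

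These calls depended on the libraries. Of the 11 subunits, 5 were called without OV-CTRL replicate 2 or replicate 3, 6 without NVR replicate 3 and 11 without OV-CTRL replicate 1 or NVR replicate 2. Fitted on these 6 libraries alone, 3 were called, with a median of 0.83. The summed complex IV level was 3278, 2514 and 4153 CPM in the NVR-labelled libraries and 2304, 1771 and 1649 CPM in OV-CTRL. In OV-L1-FGGY it was 1565, 1760 and 1542 CPM with DMSO and 2101, 1787 and 2167 CPM with ML355.

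Nuclear genes of the chain are known targets of ETS-family factors such as GABPA, of NRF1 and of YY1. RefSeq promoter windows (250 bases before to 50 after the annotated start, GRCh38.p14) were found for 71 of the 91 members, 84 windows in all. The letters CCGGAAG (ETS family), on either strand, stood in 26.2% of these windows and in 10.3% of all 35116 windows. GCATGCGC (NRF1) stood in 17.9% against 3.05%, and AAGATGGCG (YY1) in 11.9% against 1.75%. Member windows held a median of 22 CpG and 60.2% G and C, against 14 CpG and 58.7% in all windows, and the part of base content in these shares was not tested. None of the 16 complex IV windows held the YY1 letters. A match of letters is a description and says nothing of binding.

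The last 100 bases before the annotated start are shown for *SDHD*, which differed most between the sets in complex II, for 4 complex IV members that were higher in the NVR-labelled libraries, and for *COX7B2*, which had no count in that set. Capitals mark the ETS family letters or their reverse complement CTTCCGG. They lie at chr11:112086773-112086872 (+), chr2:97645962-97646061 (+), chr12:120438013-120438112 (+), chr11:63974520-63974619 (+), chr19:35648223-35648322 (+) and chr4:46909246-46909345 (-), in the order shown. The first 5 hold the letters once and the last does not hold them. The letters stood in 5 of the 16 complex IV windows (31.2%), those of the 4 genes shown and *COX4I1*. *COX6C*, *COX7A2*, *COX7B*, *COX7C* and *NDUFA4* were also higher and had no window with them, so the genes shown do not stand for all that rose.
SDHD: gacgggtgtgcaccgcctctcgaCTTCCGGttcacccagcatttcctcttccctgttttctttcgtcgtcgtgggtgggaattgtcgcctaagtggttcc
COX5B: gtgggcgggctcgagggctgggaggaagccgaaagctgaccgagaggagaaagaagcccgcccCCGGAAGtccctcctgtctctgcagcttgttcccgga
COX6A1: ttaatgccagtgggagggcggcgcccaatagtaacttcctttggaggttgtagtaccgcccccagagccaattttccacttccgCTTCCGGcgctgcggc
COX8A: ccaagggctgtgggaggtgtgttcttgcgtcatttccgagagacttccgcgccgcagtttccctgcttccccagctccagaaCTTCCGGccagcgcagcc
COX6B1: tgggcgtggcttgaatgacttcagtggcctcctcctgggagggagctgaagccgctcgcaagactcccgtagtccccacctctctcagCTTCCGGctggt
COX7B2: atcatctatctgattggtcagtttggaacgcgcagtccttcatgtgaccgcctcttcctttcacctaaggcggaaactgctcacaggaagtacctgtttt

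Members that share these letters did not move alike between the sets. *COX6B1*, a subunit of the intermembrane side, was at 68.0, 71.6 and 70.1 CPM in OV-L1-FGGY with DMSO and 441, 333 and 306 CPM in OV-CTRL (log2 fold change -2.36, SE 0.25, edgeR adjusted p = 3.41e-07). *COX6A1* was at 25.7, 29.1 and 26.5 CPM against 12.2, 7.12 and 7.21 CPM (1.62, SE 0.27, edgeR adjusted p = 4.06e-05). *COX5B* was at 112 ± 17.1 CPM against 97.3 ± 19.9 CPM (0.21, SE 0.20, edgeR adjusted p = 0.359). *COX8A* was at 30.2 ± 1.38 CPM against 35.8 ± 8.84 CPM (-0.24, SE 0.23, edgeR adjusted p = 0.337). Of its canonical transcript, 35.4% lies in exons of another gene, so its reads are uncertain, as are those of *COX6A1*.

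The 4 tested tissue-restricted paralogs of complex IV were all called in OV-L1-FGGY against OV-CTRL, 2 in each direction. Most genes were called in this comparison, 32.5% of all genes tested higher and 36.2% lower. *COX7B2*, a paralog of *COX7B* known from testis and from some tumours, had 163, 176 and 132 counts in OV-L1-FGGY with DMSO, 109, 94 and 180 with ML355 and none in the other 6 libraries. It was at least 70.5-fold higher in OV-L1-FGGY with DMSO than in OV-CTRL, where the floor of 3 counts in a library averaged 0.119 CPM over the group. *COX7A1*, the muscle paralog, was the reverse. It had at most 2 counts in any library with high *FGGY*, and was at 1.14 ± 0.0641 CPM in the NVR-labelled libraries and 1.05 ± 0.325 CPM in OV-CTRL, at least 6.55-fold lower in OV-L1-FGGY with DMSO than in OV-CTRL.

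*COX6B2*, known from testis, was at 12.6, 11.6 and 12.3 CPM in OV-L1-FGGY with DMSO, 3.45, 4.38 and 3.05 CPM with ML355, 1.85, 1.37 and 3.02 CPM in the NVR-labelled libraries, and 2.94, 2.39 and 2.34 CPM in OV-CTRL. The 3 DMSO libraries of OV-L1-FGGY stood above all others. It was higher there than in OV-CTRL by 2.25 (SE 0.24, edgeR adjusted p = 2.73e-07) and fell after ML355, by -1.74 (SE 0.23, edgeR adjusted p = 1.12e-05), the largest fall among the members. *NDUFA4L2*, a hypoxia-responsive paralog of *NDUFA4*, had 2, 0 and 4 counts in OV-L1-FGGY with DMSO, 20, 12 and 25 with ML355, 151, 194 and 234 in the NVR-labelled libraries and 174, 138 and 136 in OV-CTRL. It rose after ML355 from 0.105 ± 0.101 to 0.972 ± 0.348 CPM (log2 fold change 3.12, SE 0.63, edgeR adjusted p = 0.000514), a level still below the 5.98 ± 1.17 CPM of OV-CTRL.

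Per kilobase of canonical transcript in OV-L1-FGGY with DMSO, *COX7B2* was at 15.1 CPM against 52.4 for *COX7B*, *COX6B2* at 7.73 against 143 for *COX6B1*, and *NDUFA4L2* at 0.111 against 86.0 for *NDUFA4*. The ubiquitous paralog had the higher level in each of these pairs. *COX7A2L*, whose protein joins complexes III and IV in supercomplexes, was at 126, 142 and 132 CPM in OV-L1-FGGY with DMSO, 372, 336 and 340 CPM with ML355, 169, 160 and 171 CPM in the NVR-labelled libraries, and 115, 102 and 97.6 CPM in OV-CTRL. The ML355 libraries were above all others, and it was also higher in the NVR-labelled libraries than in OV-CTRL, at 0.67 (SE 0.10, edgeR adjusted p = 8.43e-05).

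**Figure D5:**
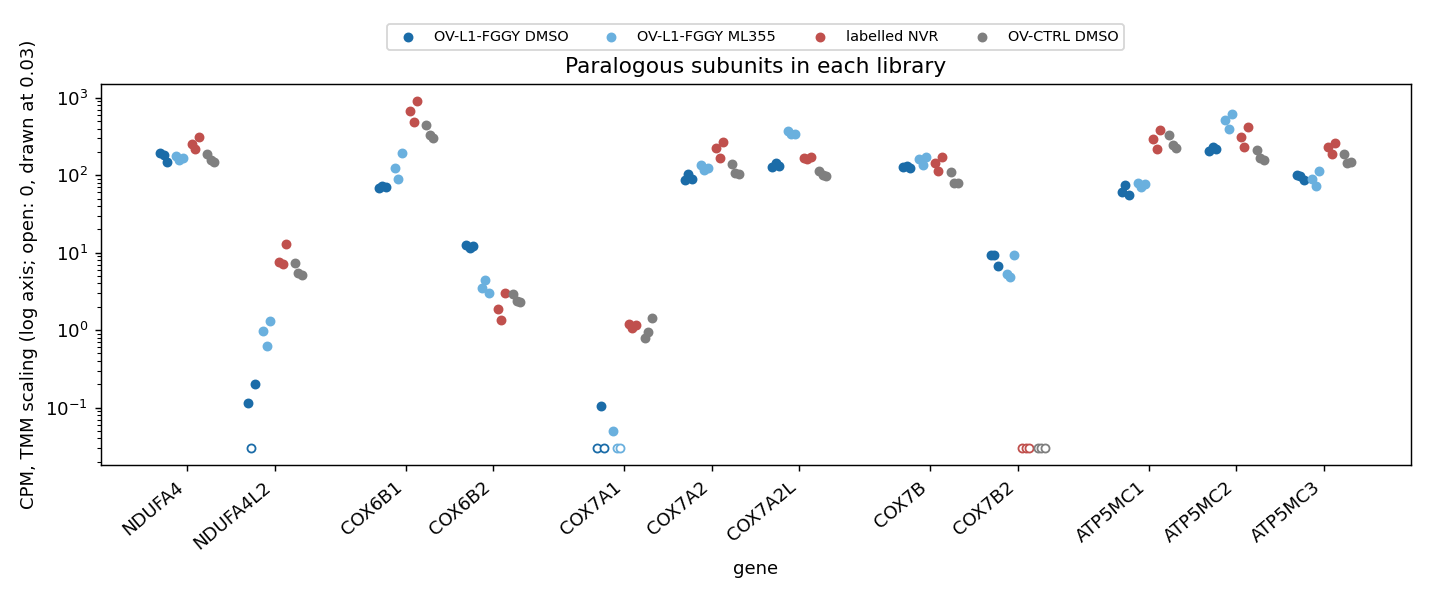
CPM of paralogous subunits (horizontal axis) in each library, on a log axis, coloured by group; open points had no count and are drawn at 0.03. COX7B2 has counts in the OV-L1-FGGY libraries alone, with 163, 176 and 132 in DMSO, while COX7A1 and NDUFA4L2 are highest in the NVR-labelled libraries and OV-CTRL.

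Complex V, the ATP synthase, consists of the F1 catalytic head, the peripheral stalk that holds it, the rotating c-ring and small membrane subunits. In OV-L1-FGGY against OV-CTRL, 8 of its 19 members were higher and 4 lower. These were 42.1% and 21.1%, where all genes tested had 32.5% and 36.2%. The parts were counted apart, and differences between these few genes were not tested. Of the 4 stalk members, *ATP5PB*, *ATP5PF* and *ATP5PO* were higher and none lower, with 63.8% of the canonical *ATP5PO* transcript in exons of another gene. Of the 3 c-ring genes, *ATP5MC1* and *ATP5MC3* were lower and none higher. With the length trend removed, these 5 genes were still called in the same direction.

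*ATP5PB* was at 244, 226 and 207 CPM in OV-L1-FGGY with DMSO, 133, 131 and 152 CPM with ML355, 88.7, 78.8 and 87.6 CPM in the NVR-labelled libraries, and 98.1, 86.9 and 88.3 CPM in OV-CTRL. The difference between OV-L1-FGGY and OV-CTRL in DMSO was 1.31 (SE 0.11, edgeR adjusted p = 1.34e-08). *ATP5MG*, of the membrane part, was higher by 1.74 (SE 0.19, edgeR adjusted p = 4.48e-07), with 103 ± 4.07 against 30.8 ± 7.83 CPM. *ATP5ME*, also of the membrane part, was higher by 2.05 (SE 0.48, edgeR adjusted p = 0.00108), at a low level, with 1.43, 2.73 and 4.13 CPM against 1.09, 0.352 and 0.575 CPM. *ATP5MGL*, a paralog of *ATP5MG*, was at least 3.07-fold higher, at 0.366 ± 0.168 CPM, close to the floor.

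The c-ring genes *ATP5MC1*, *ATP5MC2* and *ATP5MC3* encode the same mature protein with different import sequences, and they responded differently. *ATP5MC1* was at 61.4, 75.4 and 55.3 CPM in OV-L1-FGGY with DMSO, 78.6, 71.4 and 76.4 CPM with ML355, 293, 217 and 387 CPM in the NVR-labelled libraries, and 327, 247 and 223 CPM in OV-CTRL. It separated the sets, at -2.05 (SE 0.19, edgeR adjusted p = 6.39e-08), and was not called within either. *ATP5MC2* was at 203, 230 and 218 CPM, 518, 392 and 619 CPM, 315, 233 and 416 CPM, and 212, 165 and 158 CPM in the same order. It rose after ML355 by 1.23 (SE 0.20, edgeR adjusted p = 5.96e-05), or 0.82 with the length trend removed. It was also higher in the NVR-labelled libraries than in OV-CTRL by 0.85 (SE 0.19, edgeR adjusted p = 0.00238), which was not called at 0.36 without the length trend. *ATP5MC3* was at 96.2 ± 7.38 CPM in OV-L1-FGGY with DMSO, 92.1 ± 21.3 with ML355, 227 ± 35.4 in the NVR-labelled libraries and 160 ± 23.8 in OV-CTRL.

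After ML355, *ATP5F1A*, *ATP5PB* and *ATP5PF* were lower, and all 3 were still called with the length trend removed. *ATP5F1A*, the alpha subunit of the head, went from 513, 489 and 446 CPM to 253, 237 and 242 CPM, by -0.98 (SE 0.10, edgeR adjusted p = 6.2e-07). *ATP5F1B*, the beta subunit with the catalytic sites, was at 928, 875 and 778 CPM and 842, 833 and 892 CPM, with a log2 fold change of -0.01 (SE 0.11). The libraries of the first did not overlap and those of the second did. *ATP5PB* changed by -0.70 (SE 0.11, edgeR adjusted p = 3.77e-05) and *ATP5PF* by -0.58 (SE 0.16, edgeR adjusted p = 0.00674).

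Comparing the NVR-labelled libraries with OV-CTRL, 4 complex V members were higher, *ATP5F1E*, *ATP5MC2*, *ATP5MJ* and the inhibitor *ATP5IF1*, and none was lower. *ATP5F1E*, the epsilon subunit of the head, was at 302, 208 and 438 CPM against 206, 148 and 142 CPM, at 0.93 (SE 0.23, edgeR adjusted p = 0.00344). It was the only one of the 4 still called with the length trend removed. That fit took it as 3610 bases long, and whether these cells use that length was not examined. Of its canonical transcript, 32.7% lies in exons of another gene, so its reads are uncertain. *ATP5IF1*, which blocks ATP hydrolysis by the enzyme, was at 64.2, 62.0 and 56.9 CPM in OV-L1-FGGY with DMSO, 81.9, 63.3 and 81.4 CPM with ML355, 139, 108 and 196 CPM in the NVR-labelled libraries, and 112, 86.1 and 77.7 CPM in OV-CTRL. It was lower in OV-L1-FGGY than in OV-CTRL by -0.59 (SE 0.19, edgeR adjusted p = 0.00864), which was not called at -0.20 without the length trend.

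The NVR-labelled libraries against OV-L1-FGGY with DMSO crossed the sets and share the DMSO libraries of OV-L1-FGGY with the comparisons above. Members called higher and lower were 21 and 3 in complex I, none and 3 in complex II, 5 and none in complex III, 12 and 2 in complex IV and 8 and 5 in complex V. In complexes I, IV and V these were 56.8% and 8.11%, 75% and 12.5%, and 42.1% and 26.3%. All genes tested had 38.2% and 35.4%, so the share higher in complex V was near that of all genes. With the length trend removed the counts became 14 and 9, none and 4, 4 and 2, 4 and 3, and 4 and 8. In complexes I, IV and V these were 37.8% and 24.3%, 25% and 18.8%, and 21.1% and 42.1%, where all genes had 38% and 35.6%. Complex II was thus the only complex with no member called higher in either fit, and complex V held more higher than lower calls as fitted and fewer with the trend removed. The largest rise among members above 1 CPM on average outside the paralogs was that of *NDUFA3*, at 3.83 (SE 0.31, edgeR adjusted p = 7.65e-09), followed by *COX6B1*, at 3.31 (SE 0.26, edgeR adjusted p = 7.2e-09).

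The 2 comparisons within the sets share no library. Called higher in both were *ATP5MC2*, *COX6B1*, *COX7A2L*, *NDUFA3*, *UQCRB* and *UQCRHL*, 6 of the 18 after ML355 and 6 of the 22 in the NVR-labelled libraries. These 6 were 6.98% of the members tested, where 4.71% of all genes tested were called higher in both. No member was called in opposite directions, where 5.31% of all genes were, and only 6 members were called lower after ML355 and 1 in the NVR-labelled libraries. The difference between the 2 effects was tested as an interaction, in which 9 members were higher and 5 lower, with 16.8% and 17.3% of all genes tested.

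The other genes of the pathway were examined by list. Of 49 tested assembly factors of the 5 complexes, 12 were higher and 9 lower after ML355, and 11 and 4 in the NVR-labelled libraries against OV-CTRL. Between OV-L1-FGGY and OV-CTRL 12 were higher and 19 lower. These were 24.5% and 18.4%, 22.4% and 8.16%, and 24.5% and 38.8% of the list, against 21.3% and 23.5%, 14.5% and 15.3%, and 32.5% and 36.2% of all genes tested. Of the 19 tested complex IV assembly factors, *COA5*, *COX14*, *COX17*, *HIGD2A* and *SURF1* were higher in the NVR-labelled libraries than in OV-CTRL, and *COA7* and *SCO1* were lower. *COA7*, a complex IV assembly factor, was at 91.9 ± 6.22 CPM in OV-L1-FGGY with DMSO, 46.9 ± 4.36 with ML355, 11.5 ± 0.34 in the NVR-labelled libraries and 24.0 ± 1.39 in OV-CTRL. Its change in the NVR-labelled libraries against OV-CTRL was -1.05 (SE 0.11, edgeR adjusted p = 2.77e-06). *TMEM126B*, a complex I assembly factor, was at 80.4 ± 2.23 CPM in OV-L1-FGGY with DMSO against 26.5 ± 1.69 CPM in OV-CTRL. *SDHAF1*, which helps insert iron-sulfur clusters into SDHB, was at 14.1 ± 1.5 CPM against 55.1 ± 9.77 CPM. Of the other complex II assembly factors, *SDHAF2* was higher, at 21.6 ± 5.59 CPM against 5.15 ± 1.45 CPM, *SDHAF4* was lower and *SDHAF3* was not called.

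Of 18 tested electron carriers and ubiquinone enzymes, 2 were higher and 5 lower after ML355, and 4 and 7 in the NVR-labelled libraries against OV-CTRL. These were 11.1% and 27.8%, and 22.2% and 38.9%, beside the shares of all genes given for the assembly factors. *PDSS1*, which starts the ubiquinone side chain, fell in both, by -1.48 (SE 0.16, edgeR adjusted p = 9.87e-07) and -1.79 (SE 0.16, edgeR adjusted p = 4.03e-07). Cytochrome c (*CYCS*) was at 132 ± 9.05 CPM in OV-L1-FGGY with DMSO against 260 ± 14.3 CPM in OV-CTRL (-0.98, SE 0.11, edgeR adjusted p = 8.29e-07), the same direction as *CYC1*, to which it binds.

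Of 12 nuclear regulators, 2 were higher and 3 lower after ML355, and none was higher and 6 were lower in the NVR-labelled libraries against OV-CTRL. In OV-L1-FGGY against OV-CTRL 5 were higher and 1 lower. The shares were 16.7% and 25%, none and 50%, and 41.7% and 8.33%, beside the same shares of all genes. *PPARGC1A*, a coactivator of mitochondrial biogenesis, was at 25.0 ± 3.2 CPM in OV-L1-FGGY with DMSO and 0.486 ± 0.171 CPM in OV-CTRL (5.66, SE 0.28, edgeR adjusted p = 3.08e-11). *GABPA*, the DNA-binding part of the ETS factor, was at 40.2 ± 0.4 against 12.7 ± 1.3 CPM (1.66, SE 0.15, edgeR adjusted p = 3.72e-08), and *TFAM*, which acts on mitochondrial DNA, at 132 ± 8.55 against 66.8 ± 7.02 CPM (0.98, SE 0.12, edgeR adjusted p = 2.12e-06). In the NVR-labelled libraries, *TFAM* was lower than in OV-CTRL, at -0.96 (SE 0.13, edgeR adjusted p = 2.1e-05).

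The 13 mRNAs of the mitochondrial genome went apart from the nuclear-encoded subunits after ML355. All 13 were lower, with a median of -3.23, and mitochondrially encoded genes took 1.46% to 1.64% of counts with ML355 against 5.79% to 6.52% with DMSO. The 86 nuclear-encoded members had a median of 0.23 in the same comparison. Against OV-CTRL, in the NVR-labelled libraries, 5 of the 13 were higher and none lower, with a median of 0.33. With TMM computed without mitochondrially encoded genes, the members called higher and lower after ML355 were 22 and 6.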

How the data were processed

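RNA of 12 NCI-H520 cultures in 4 groups of 3 was sequenced. The authors deposited raw read counts per gene, made per the labels with STAR 2.5.3a and HTSeq 0.11.2 on hg38; the annotation release and the strand setting are not given in the sources used here, and the labels and the methods name different library kits. Gene symbols came from GENCODE 44 for 57532 of 58302 identifiers. Counts were filtered with filterByExpr, scaled by TMM and fitted with edgeR 4.0.16 (R 4.3.3) by the robust quasi-likelihood test with all 4 groups in 1 model. A gene was called at a Benjamini-Hochberg adjusted p under 0.01 over 17849 genes, and the SE is the absolute log2 fold change divided by the square root of F. The scripts were tested on simulated data. Intervals of depth cover counting error only, and the floor of 3 counts was 0.111 to 0.172 CPM with TMM scaling. Replicates correlated at 0.9795 or more and none was a duplicate. Alternatives were DESeq2 1.42.0, limma 3.58.1 (voom), other scalings, filters, thresholds, samples and a replicate block. Members, lists and tests were chosen with earlier results of these data known. Values in every library were given for the largest called rise and fall per complex and comparison (mean of at least 1 CPM), paralogs and *ATP5IF1*, and up to 3 genes per comparison were named from other lists. *NDUFA10*, *NDUFV1*, *COX4I1*, *COX7C*, *ATP5PB* and *ATP5F1B* were described after their values were seen. Same-numbered replicates were not paired: no comparison had all 3 correlations of their deviations above 0.1.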

Additional observations from a re-analysis of the deposited data

Results flagged for a closer look

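The effect of ML355 in OV-L1-FGGY and the difference between the NVR-labelled libraries and OV-CTRL were compared by an interaction term in edgeR, and 14 members differed at an adjusted p under 0.01. Of the members tested, 10.5% were higher and 5.81% lower, below the 16.8% and 17.3% of all genes tested. The interaction (the second log2 fold change minus the first) was positive for *COX6B2* (1.42), *NDUFC2* (1.25), *ATP5PF* (1.13), *NDUFB1* (1.11), *COX6C* (1.02), *ATP5F1A* (0.79), *NDUFA4* (0.74), *ATP5PB* (0.60) and *SDHC* (0.58). It was negative for *NDUFV2* (-2.78), *NDUFA4L2* (-2.50), *UQCRC2* (-1.01), *CYC1* (-0.86) and *COX7A2L* (-0.72). *COX7A2L* was higher in both comparisons and more so after ML355. The groups of 3 were too small for a check of single samples that stand apart.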

How the results depend on the processing

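Counts of called members moved with the test, the filter, the threshold, transcript length, the samples in the fit and single libraries, and the cause was not tested. With the length trend removed, 14 were lower after ML355, 6 lower in the NVR-labelled libraries against OV-CTRL, 32 higher in OV-L1-FGGY against OV-CTRL, 26 higher and 26 lower in the NVR-labelled libraries against OV-L1-FGGY, and 17 higher in the interaction. In that fit *COX4I1* (-0.09), *COX5B* (-0.25), *NDUFA8* (-0.05), *NDUFB2* (-0.13) and *NDUFS5* (-0.25) reversed in the NVR-labelled libraries against OV-L1-FGGY. Of 162 named gene results, 118 kept direction and call, 39 lost the call and 5 reversed. For the NVR-labelled libraries against OV-CTRL, members called higher were 39 by DESeq2, 40 without a filter, 6 with only the groups compared, 49 at an adjusted p under 0.05 and 4 when an absolute log2 change of 1 or more was also required. Members called lower were 2 by DESeq2, 2 with at least 10 counts in every library, 3 with library size alone, 2 at an adjusted p under 0.05, 0 with only the groups compared and 0 at the fold minimum. After ML355, 28 were higher with only the groups compared, 29 at an adjusted p under 0.05 and 8 at the fold minimum, where 2 were lower. At that minimum 10 were higher in OV-L1-FGGY against OV-CTRL, and 5 higher and 3 lower in the interaction. The interaction had 17 higher without a filter and 17 at an adjusted p under 0.05. Among members with under 20% of the transcript in another gene, 11 were higher in OV-L1-FGGY against OV-CTRL and 7 lower in the NVR-labelled libraries against OV-L1-FGGY.

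Leaving out 1 library gave 11 to 28 higher and 4 to 7 lower after ML355, 6 to 44 and 1 to 2 in the NVR-labelled libraries against OV-CTRL, 17 to 23 and 20 to 26 in OV-L1-FGGY against OV-CTRL, 40 to 49 and 12 to 16 in the NVR-labelled libraries against OV-L1-FGGY, and 4 to 24 and 4 to 5 in the interaction. The NVR-labelled libraries against OV-CTRL had 38, 7 and 6 higher without OV-CTRL replicates 1, 2 and 3, 14, 44 and 10 without NVR replicates 1, 2 and 3, and 2 lower without ML355 replicate 3 or NVR replicate 2. After ML355, 11 were higher without OV-L1-FGGY DMSO replicate 1 and 28 without NVR replicate 2. In the interaction, 4 were higher without OV-CTRL replicate 2, OV-CTRL replicate 3 or OV-L1-FGGY DMSO replicate 1, 5 without OV-L1-FGGY DMSO replicate 2 or ML355 replicate 3, and 24 without NVR replicate 2.

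With library size alone the median of all genes moved to -0.13 after ML355, -0.15 in the NVR-labelled libraries against OV-CTRL and -0.16 in the NVR-labelled libraries against OV-L1-FGGY, where members called higher and lower were 18 and 3 in the second and 40 and 19 in the third. With the replicate block, members called higher and lower were 17 and 6 after ML355, 22 and 1 in the NVR-labelled libraries against OV-CTRL, 20 and 22 in OV-L1-FGGY against OV-CTRL, 43 and 13 in the NVR-labelled libraries against OV-L1-FGGY, and 8 and 5 in the interaction. Same-numbered replicates correlated between -0.354 and 0.17, so the numbers were not taken as pairs.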
